A study of Homo sapiens with 6 samples.

Results

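The genes described here encode the receptor tyrosine kinases of the ERBB family (EGFR, ERBB2, ERBB3 and ERBB4), 3 of the FGF receptors (FGFR1, FGFR2 and FGFR3) and the HGF receptor MET, together with TACC3, the neighbour and known fusion partner of FGFR3. These 9 genes were chosen by name from 20136 protein-coding genes, for their place in bladder cancer biology. The rule uses no measured value, but earlier results of these data were known when it was made. The data are peak lists from ChIP-seq with an anti-PAI-1 antibody. PAI-1 (plasminogen activator inhibitor-1) is a serpin that blocks plasminogen activation outside the cell, and the study followed it into the nucleus. RT112 and UM-UC-3, established lines of human bladder cancer cells, each gave 2 ChIP libraries, which the labels call biological replicates, and 1 input library that was not analysed here. The labels give no treatment or genetic change in either line, and all 4 ChIP libraries were made with the same antibody. The lists hold no expression values, so the labelled cell type could not be checked against marker genes, and the copy number of the loci was not measured.

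Receptor tyrosine kinases are cell surface proteins that pair up when a ligand binds outside the cell and then phosphorylate each other inside it. This recruits adaptors such as GRB2 and FRS2 and starts the RAS-MAPK and PI3K-AKT cascades that drive growth. In the urothelium, FGFR3 is known for activating mutations and for fusion to TACC3 in bladder tumours, RT112 being a line known to carry such a fusion, while EGFR, ERBB2, ERBB3 and MET are known as receptors that tumours amplify or overexpress.

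A peak was assigned to a gene when it overlapped the gene or the 10 kb on either side, and it was called repeated when it shared at least 1 bp with a peak of the other replicate of the same cell line. Across the genome, the lists held 60227 to 96423 peaks in RT112 and 109287 to 114094 in UM-UC-3, that is 21.1 to 39.9 peaks per Mb. RT112 replicate 2 was the smallest list. Of all peaks, 38.2% and 61.3% were repeated in the RT112 replicates and 74.9% and 71.7% in those of UM-UC-3, replicate 1 being given first here and below. The score of a peak, on a −log10 scale, stands for the p or q of the peak caller, with a lowest value of 2.00 to 2.01 in every list. Reads were not counted in the lists, and the methods of the study give an average over samples but no depth for each library.

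Some of the repeated peaks are shown first as DNA. For MET and EGFR the sequence is that of the gene's repeated peak whose score ranked best on average over the replicates of a line. The peak with the highest score at the 9 loci, upstream of FGFR1, is not among them. All were read from the plus strand of GRCh37 (hg19) in lower case. Capitals mark bases that lie in 24-base words found at least 10 times in the assembly. The MET peak of UM-UC-3 at chr7:116434484-116434717 lay in intron 19 of the gene, toward its kinase-coding end, and is shown because RT112 had no peak in this gene.
MET, UM-UC-3: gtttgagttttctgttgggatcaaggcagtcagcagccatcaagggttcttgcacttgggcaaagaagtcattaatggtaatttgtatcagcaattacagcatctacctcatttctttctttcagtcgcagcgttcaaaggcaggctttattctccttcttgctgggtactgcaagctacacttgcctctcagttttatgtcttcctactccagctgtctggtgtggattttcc
The EGFR peaks at chr7:55099677-55099912 for RT112 and chr7:55118970-55119240 for UM-UC-3 both lay in intron 1 and are shown because each line had a repeated site of its own there.
EGFR, RT112: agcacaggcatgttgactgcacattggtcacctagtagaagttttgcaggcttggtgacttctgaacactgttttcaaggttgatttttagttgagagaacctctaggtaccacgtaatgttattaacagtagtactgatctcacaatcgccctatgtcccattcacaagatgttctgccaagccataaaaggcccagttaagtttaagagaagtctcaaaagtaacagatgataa
EGFR, UM-UC-3: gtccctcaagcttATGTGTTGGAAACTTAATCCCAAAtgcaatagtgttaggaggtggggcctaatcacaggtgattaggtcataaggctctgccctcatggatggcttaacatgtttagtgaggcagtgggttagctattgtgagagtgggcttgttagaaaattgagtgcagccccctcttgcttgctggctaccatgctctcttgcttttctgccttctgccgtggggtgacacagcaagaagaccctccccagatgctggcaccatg
The ERBB4 peak of UM-UC-3 at chr2:213401652-213402128 is shown because it was the only repeated peak within 3 kb of the 5′ end of a member. It lay in intron 1, was 477 bp wide and held 29 CpG dinucleotides, and its middle 300 bases, chr2:213401740-213402039, are given.
ERBB4, UM-UC-3: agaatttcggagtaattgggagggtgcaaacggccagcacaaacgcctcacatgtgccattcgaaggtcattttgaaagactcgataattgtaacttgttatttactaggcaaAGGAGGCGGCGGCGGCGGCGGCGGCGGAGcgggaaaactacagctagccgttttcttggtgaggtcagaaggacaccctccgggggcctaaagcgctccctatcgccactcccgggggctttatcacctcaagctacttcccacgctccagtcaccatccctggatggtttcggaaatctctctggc
No base of the MET peak or of the RT112 peak of EGFR was in capitals, and 8.86% of the bases of the UM-UC-3 peak of EGFR were.

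In the 9 loci the 4 lists held 131 peaks. There were 35 and 15 in the RT112 replicates and 40 and 41 in those of UM-UC-3. ERBB4, by far the longest member at 1163 kb, held 67 of them. Introns held 108 of the 131 peaks, and 11 lay upstream, 4 downstream, 5 in UTR exons and 3 in coding exons.

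**Figure D1:**
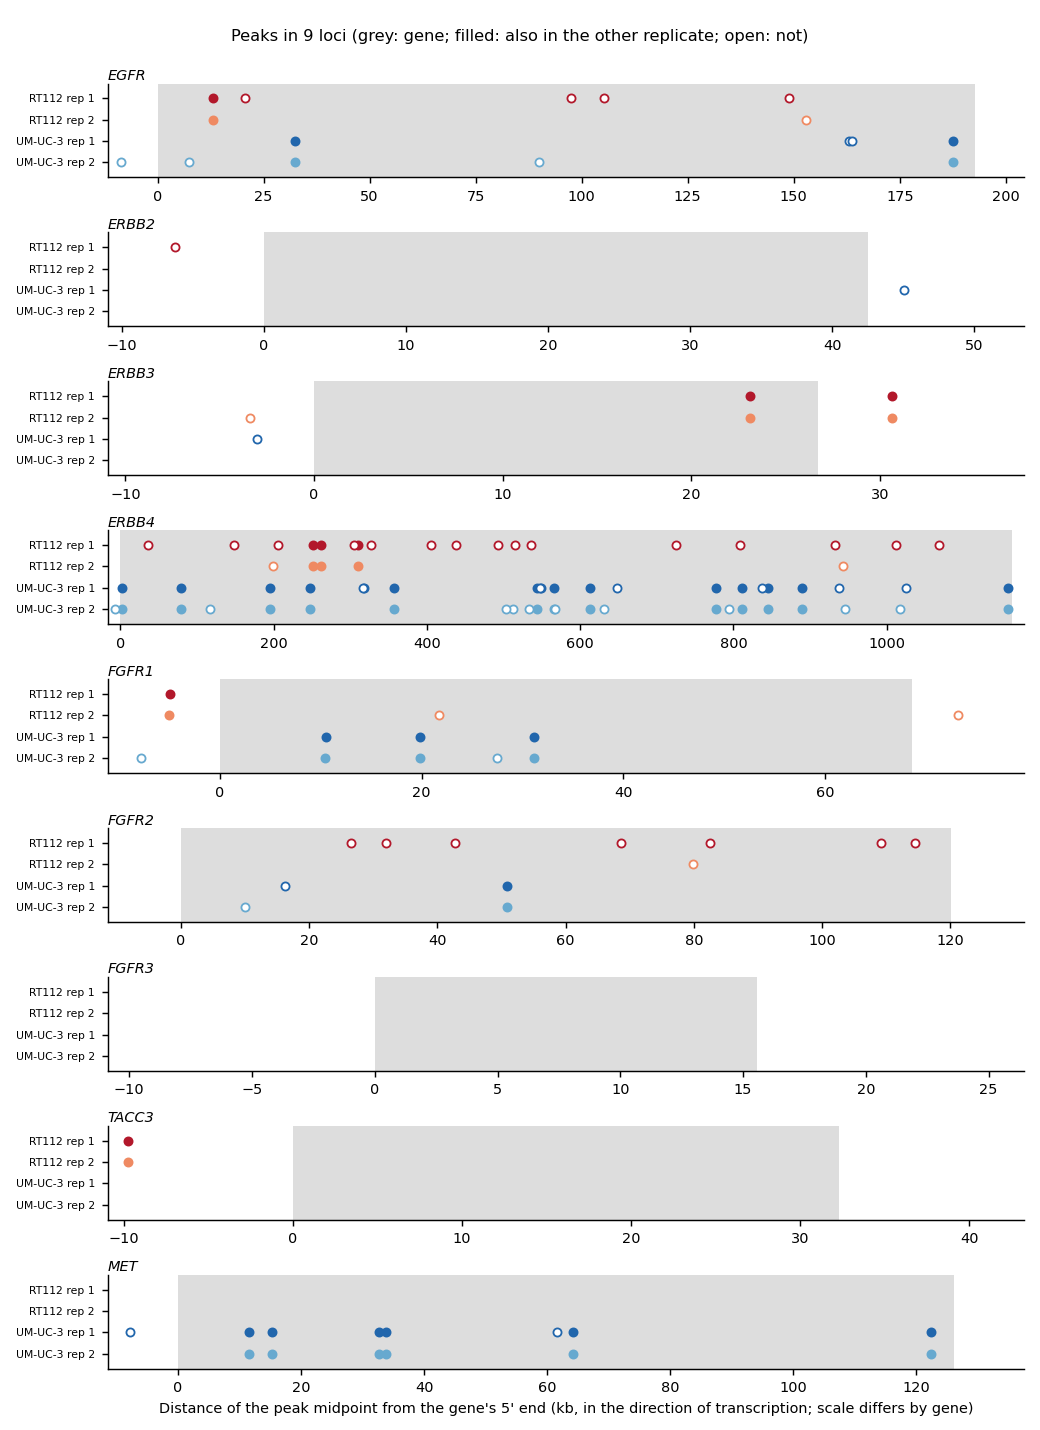
Peaks in each locus by the distance of the midpoint from the 5′ end of the gene in kb, in the direction of transcription; grey marks the gene, each line of points is a library, filled points are repeated peaks and open points are not. FGFR3 has no point, MET has points in UM-UC-3 alone (8 and 6), and no filled point of RT112 lies at the position of a filled point of UM-UC-3.

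EGFR, the receptor of EGF and TGFA, spans chr7:55086710-55279321 on the plus strand of GRCh37 (192.6 kb). It held 5 and 2 peaks in the RT112 replicates and 4 and 5 in those of UM-UC-3, so the counts of the cell lines overlapped. In RT112 the only repeated peak was the intron 1 site printed above, 13.1 kb from the 5′ end, with scores of 7.43 and 4.09. UM-UC-3 had 2 repeated peaks: the intron 1 site 32.4 kb from the 5′ end, with scores of 4.06 and 6.57, and a site at chr7:55274062-55274448 in the last exon, exon 28, which is 3′ UTR there, with scores of 4.51 and 5.67. The RT112 peak with the highest score at this gene, 10.1 in intron 15, was found in replicate 1 alone. The peak nearest to the 5′ end was 13.0 kb away in each RT112 library, 24.3 kb upstream in UM-UC-3 replicate 1 and 7.16 kb inside the gene in UM-UC-3 replicate 2.

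ERBB2 encodes HER2, which binds no ligand of its own and serves as partner for the other ERBB receptors. The gene lies at chr17:37844167-37886679 on the plus strand (42.5 kb). It held 1 and 0 peaks in the RT112 replicates and 1 and 0 in those of UM-UC-3. None was repeated and none lay in the gene itself: the RT112 peak was 6.11 kb upstream with a score of 4.94, and the UM-UC-3 peak lay past the gene end with a score of 5.68. The peak-free stretch around the gene was 65.9 and 419.8 kb long in the RT112 libraries and 97.5 and 139.2 kb in those of UM-UC-3. Stretches at least as long in the same library summed to 8.98% to 45.1% of the assembled bases. Here and below, such sums include unassembled gaps that lie between peaks, so they overstate the share of sequenced DNA. In the smaller RT112 list the nearest peak to the 5′ end was 120.7 kb away, and in UM-UC-3 replicate 2 it was 52.6 kb away.

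ERBB3, the neuregulin receptor whose own kinase is weak, spans chr12:56470583-56497289 on the plus strand (26.7 kb). It held 2 peaks in RT112 replicate 1 and 3 in RT112 replicate 2, against 1 and 0 in UM-UC-3, so the libraries of the cell lines did not overlap (two-sided exact permutation p = 0.333, which is as low as 2 libraries against 2 can go). The relative density of a locus is its peaks per Mb divided by the peaks per Mb of the genome in the same list, and for ERBB3 it was 2.16 ± 1.26 (SD, n = 2) in RT112 and 0.280 ± 0.396 (SD, n = 2) for UM-UC-3. The repeated RT112 peaks were at chr12:56493566-56493837, 23.1 kb from the 5′ end, with identical ends in the replicates and scores of 4.54 and 5.05, and at chr12:56501065-56501379 past the gene end within PA2G4, with scores of 8.01 and 3.81. The first covered 192 coding bases of exon 25 and was the only repeated peak of any member in a coding exon. Upstream of the gene, RT112 replicate 2 had a peak 3.29 kb and UM-UC-3 replicate 1 a peak 2.90 kb from the 5′ end, each without a counterpart in the other replicate. These lay 147 bp apart, the smallest distance between an RT112 and a UM-UC-3 peak at any member.

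ERBB4, a further neuregulin receptor, spans chr2:212240442-213403565 on the minus strand. It held 18 and 5 peaks in the RT112 replicates and 21 and 23 in those of UM-UC-3. The relative density was 0.451 and 0.2006 for RT112, a mean of 0.326 ± 0.177 (SD, n = 2), and 0.464 and 0.487 for UM-UC-3, a mean of 0.476 ± 0.0161 (SD, n = 2). Both UM-UC-3 libraries lay above both of RT112, but the means differed by less than the SD of RT112. RT112 had 3 repeated peaks, all in intron 1, and UM-UC-3 had 13, of which 11 lay in introns 1 to 16, 1 in the last exon and 1 near the 5′ end.

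The RT112 site of ERBB4 with the best rank, chr2:213151521-213151848, lay 251.9 kb from the 5′ end with scores of 10.1 and 6.56. The corresponding UM-UC-3 site, chr2:212513960-212514389 in intron 16, had scores of 6.61 and 6.57. The promoter-near UM-UC-3 site printed above had its midpoint 1.68 kb inside the gene and scores of 9.57 and 4.36. RT112 replicate 1 had its nearest peak 35.8 kb inside the gene and RT112 replicate 2 had it 100.1 kb upstream. The site of RT112 with the highest score, 13.0 in intron 1, was absent from the list of replicate 2.

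FGFR1, a receptor of FGF ligands, spans chr8:38257733-38326352 on the minus strand (68.6 kb). It held 1 and 3 peaks in the RT112 replicates and 3 and 5 in those of UM-UC-3, and the counts of the lines overlapped. The RT112 peak at chr8:38330978-38331727 lay upstream with its near edge 4.63 kb from the 5′ end, was 750 bp wide and had scores of 22.7 and 18.8, the highest of all peaks at the 9 members. Within its library it stood at percentile 99.2 and 98.6 of the score. It was the only FGFR1 peak of RT112 replicate 1, where the gene itself lay in a peak-free stretch of 219.0 kb.

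In UM-UC-3 all 3 FGFR1 peaks of replicate 1 were repeated. They lay 10.5, 19.9 and 31.1 kb from the 5′ end in introns 1 and 2, with scores of 2.64, 12.6 and 4.81 in replicate 1 and 2.63, 11.1 and 10.1 in replicate 2. The middle site, at chr8:38306360-38306627, had 53.9% of its 24-base words found at least 10 times in the assembly, the first one had 70.2% and the third none. At the upstream RT112 peak this share was 20.2%. The nearest UM-UC-3 peak to that RT112 site lay 2408 bp away, in replicate 2 alone.

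FGFR2 spans chr10:123237846-123357972 on the minus strand (120.1 kb). It held 7 peaks in RT112 replicate 1, 1 in RT112 replicate 2 and 2 in each UM-UC-3 library. None of the 8 RT112 peaks was repeated, so the larger count of replicate 1 rested on that library alone, and their scores ran from 2.76 to 6.15. The 1 repeated UM-UC-3 peak lay in intron 5, with identical ends in the replicates, scores of 11.3 and 12.9 and a distance of 50.9 kb from the 5′ end. The nearest peak to the 5′ end was 26.4 kb inside the gene in RT112 replicate 1, 32.2 kb upstream in RT112 replicate 2, 16.1 kb inside in UM-UC-3 replicate 1 and 9.96 kb inside in UM-UC-3 replicate 2.

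FGFR3 (chr4:1795020-1810599, plus strand, 15.6 kb) was the only member without a peak in any library. Its neighbour TACC3 (chr4:1714585-1746898, plus strand, 32.3 kb), which encodes a spindle protein of dividing cells, ends 48.1 kb before FGFR3 starts. TACC3 held 1 peak in each RT112 library and none in UM-UC-3. That peak had the same ends in the replicates to within 1 bp and scores of 13.0 and 9.32, but it lay upstream with its near edge 9.62 kb from the 5′ end, at the margin of the window and in the body of SLBP, and 77.6% of its 24-base words were found at least 10 times in the assembly.

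The bodies of TACC3 and FGFR3 lay in the same peak-free stretch in each library. It was 174.1 and 228.0 kb long in RT112 and 232.0 kb long in each UM-UC-3 library. Stretches at least as long, unassembled gaps included, summed to 7.84% and 7.44% of the assembled bases in UM-UC-3, against 13.4% and 18.3% in RT112. The nearest peak to the 5′ end of FGFR3 was 84.1 and 90.1 kb away in RT112, and 114.5 kb away in each UM-UC-3 library. The wider region was also poor in peaks: the 1 Mb on both sides of FGFR3 had 0.458 ± 0.0433 times (SD, n = 2) the peak density of the genome in RT112 and 0.454 ± 0.0327 times (SD, n = 2) in UM-UC-3. The fusion of FGFR3 to TACC3 cannot be seen in a list of peaks. No peak within 10 kb in any library was found for 14.1% of all protein-coding genes, and for 15.4% of the 500 genes nearest to FGFR3 in length.

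MET, the receptor of hepatocyte growth factor, spans chr7:116312250-116438431 on the plus strand (126.2 kb). It held 0 peaks in each RT112 library, and 8 and 6 in the UM-UC-3 replicates. The cell lines did not overlap: the relative density was 1.43 and 1.03 for UM-UC-3, a mean of 1.23 ± 0.285 (SD, n = 2), and 0 for RT112, a difference larger than the SD of UM-UC-3 (two-sided exact permutation p = 0.333, again the lowest possible). All 6 peaks of UM-UC-3 replicate 2 were repeated. They lay 11.5, 15.2, 32.6, 33.8, 64.2 and 122.4 kb from the 5′ end, in introns 1, 2, 3 and 19.

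The intron 19 site of MET, printed above, had scores of 16.4 and 8.05. The site 32.6 kb inside, chr7:116344754-116344998, had scores of 8.09 and 9.60, and the other 4 had scores of 2.63 to 8.05. None of the 14 UM-UC-3 peaks at MET consisted mostly of repeated words, the highest share being 3.36%. In RT112 the gene lay in a peak-free stretch of 278.1 kb in replicate 1 and 307.9 kb in replicate 2. Stretches at least as long, unassembled gaps included, summed to 8.30% and 12.5% of the assembled bases. Outside this stretch the region held peaks in RT112: the 1 Mb on both sides had 55 peaks in replicate 1 and 44 in replicate 2, or 0.930 ± 0.162 times (SD, n = 2) the density of the genome, beside 87 and 85 peaks and 1.101 ± 0.0516 times (SD, n = 2) in UM-UC-3. The copy number of MET was not measured, and its part in the difference was not tested.

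**Figure D2:**
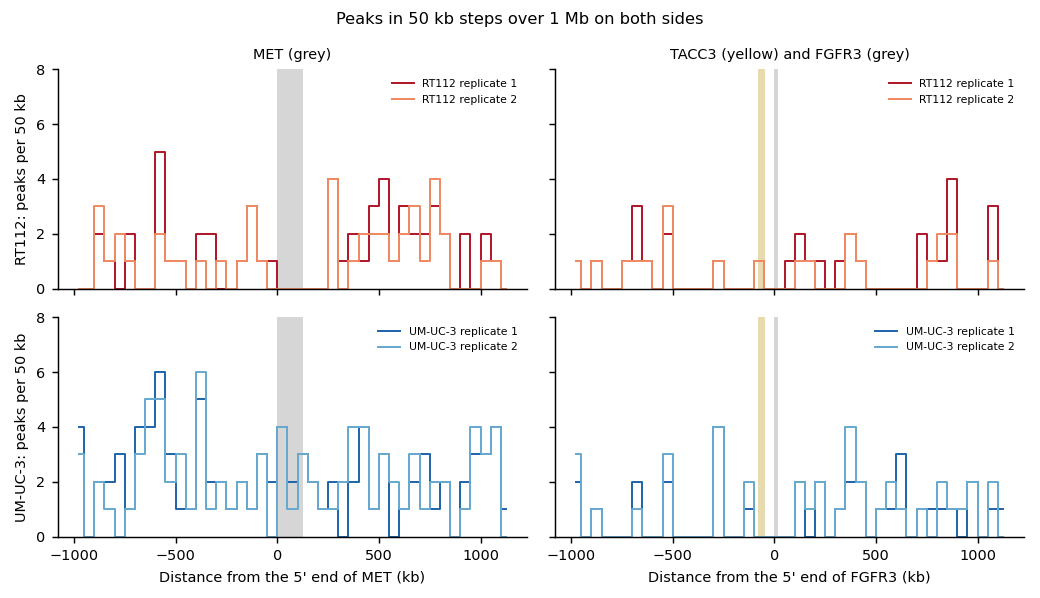
Peaks in steps of 50 kb over 1 Mb on both sides of MET (left) and of FGFR3 with TACC3 (right), by the distance from the 5′ end in kb, for the RT112 libraries above and the UM-UC-3 libraries below. The gap over MET is 278.1 and 307.9 kb wide in RT112, UM-UC-3 has peaks inside the gene, and the region of FGFR3 and TACC3 is free of peaks in all 4 libraries over at least 174.1 kb.

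No peak in RT112 with a peak in both UM-UC-3 libraries, the pattern of MET, was found for 10.7% of all protein-coding genes. Among the 500 genes nearest to MET in length, 8 had it, which is 1.60%, and 0 of those 8 had as many UM-UC-3 peaks as MET. The pattern was taken from the counts of MET itself, the only member that had it, so these shares are a description and not a test. Of these 500 genes, 79.2% had a repeated peak in RT112 and 96.6% had one in UM-UC-3. At a score of at least 5, and with windows of 50 kb, MET was still higher in UM-UC-3 in both libraries. The window of 50 kb takes in a peak of RT112 replicate 1 that lay 21.2 kb upstream of MET. The lack of peaks in both RT112 libraries therefore holds for 10 kb but not for 50 kb.

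Counted over the members, a repeated peak was found in RT112 at 5 of 9 (EGFR, ERBB3, ERBB4, FGFR1 and TACC3), beside 43.2% of all protein-coding genes. In UM-UC-3 it was found at 5 of 9 (EGFR, ERBB4, FGFR1, FGFR2 and MET), beside 63.3% of all protein-coding genes. Both member counts were near these shares, which do not take gene length into account. Among the 500 genes nearest in length, the share ran from 28.6% for FGFR3 to 99.2% for ERBB4 in RT112. In UM-UC-3 it ran from 49.6% for FGFR3 to 99.8% for ERBB4. It was above the share of all genes except in the groups of ERBB3 and FGFR3 and, in RT112, of TACC3. Both UM-UC-3 libraries exceeded both RT112 libraries in relative density at ERBB4 and MET, beside 27.2% of all genes, and the reverse held at ERBB3 and TACC3, beside 22.9% of all genes. With 2 of 9 in each direction, these counts too were near the shares of all genes, with gene length again not taken into account.

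Longer genes hold more peaks, so each count was also set beside the 500 protein-coding genes nearest in length. The percentile below is the share of those genes with fewer peaks, with ties split evenly, averaged over the 4 libraries. FGFR1 stood highest, at percentile 60.1, followed by ERBB3 at 59.2, MET at 37.03, TACC3 at 33.6, FGFR2 at 31.9, ERBB4 at 31.5, ERBB2 at 23.2, FGFR3 at 22.95 and EGFR at 22.0. The order is only that of this setting: among the 200 genes nearest in length and GC content together, TACC3 stood at 58.9, ERBB4 at 52.9, FGFR3 at 42.9 and ERBB2 at 35.8. With the 200 genes nearest in length ERBB4 stood at 13.2. At a score of at least 5, TACC3 stood at 52.3, MET at 50.5, EGFR at 36.95, ERBB2 at 36.2, FGFR3 at 36.1 and ERBB4 at 15.8. The averages also hid a wide spread between libraries: ERBB3 ran from 14.8 to 95.4, FGFR2 from 11.3 to 80.8 and MET from 1.80 to 82.6, so most neighbours in this order did not differ beyond it. EGFR (13.3 to 33.5), ERBB2 (8.0 to 32.8) and ERBB4 (8.30 to 42.6) stood below the middle of their length groups in each library. FGFR3 ran from 18.3 to 30.5, the lowest values that a gene with 0 peaks and these ties can have. From 36.6% to 61% of its length group also had 0 peaks, and in RT112 replicate 2 the median of that group was 0. For ERBB4 few genes are as long, and its group reached from 402.0 to 1899.6 kb.

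**Figure D3:**
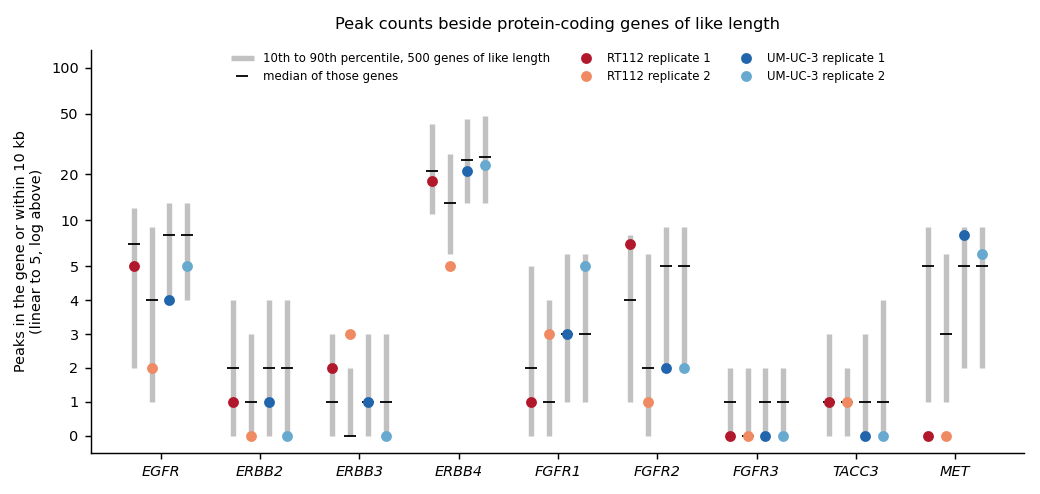
Peaks within 10 kb of each member in each library (points), beside the 10th to 90th percentile (grey bars) and the median (black dashes) of the 500 protein-coding genes nearest in length; the axis is linear to 5 and logarithmic above. The RT112 points of MET lie at 0, below their bars, and the UM-UC-3 point of replicate 1 at 8 lies near the top of its bar.

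Peak density over the 9 windows together was below that of the genome in each library. Divided by the density of the whole assembly, it was 0.527 and 0.362 in the RT112 replicates and 0.532 and 0.522 in those of UM-UC-3. RT112 averaged 0.445 ± 0.117 (SD, n = 2) and UM-UC-3 0.527 ± 0.00684 (SD, n = 2). The difference of 0.0823 was within the SD of RT112 (two-sided exact permutation p = 0.667, where this design cannot go below 0.333). It turned to -0.0195 without ERBB4 and to -0.00044 without RT112 replicate 2, so no direction held. ERBB4 alone made up most of the summed window of 1.97 Mb, and its GC content of 34.7% stood at percentile 0.735 of all gene windows. Without it RT112 averaged 0.624 and UM-UC-3 0.604.

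The windows were also poorer in peaks than their surroundings. The 1 Mb on both sides of the members had 0.911, 0.981, 0.925 and 0.908 times the density of the genome in the 4 libraries, in the order above. The density of the windows was 0.579 and 0.369 times that of these flanks in RT112, a mean of 0.474 ± 0.148 (SD, n = 2), and 0.575 in each UM-UC-3 library. For all protein-coding gene windows together the density was 0.924 to 0.931 times that of the genome, and for the 3664 genes of at least 100 kb it was 1.010 to 1.025 times. By member, 7, 6, 7 and 8 of the 9 lay below their own flanks in the 4 libraries, but 62.3% to 65.5% of all genes did so too.

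**Figure D4:**
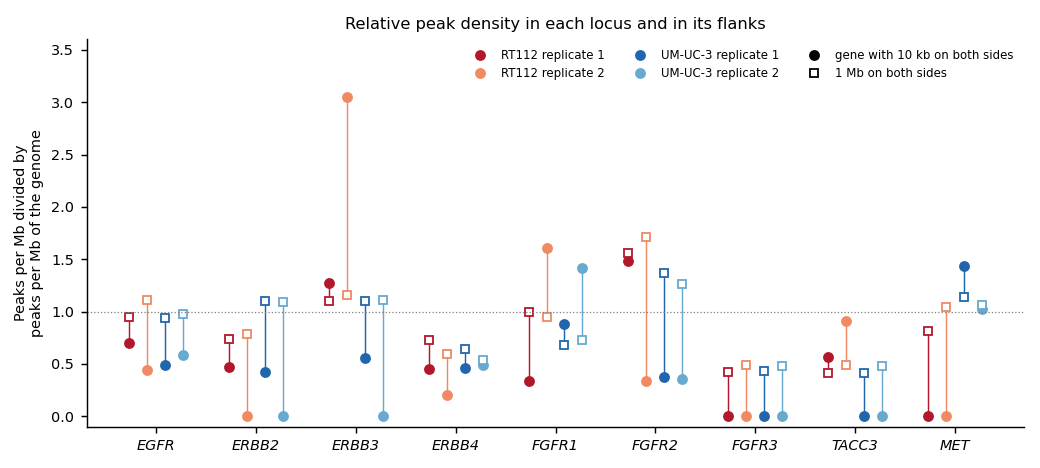
Relative peak density (peaks per Mb divided by the peaks per Mb of the genome) in each member with 10 kb on both sides (filled circles) and in the 1 Mb on both sides (open squares), joined by a line for each library; the dotted line is the genome. FGFR3 lies at 0 in flanks of about 0.45, MET lies at 0 in RT112 and at 1.43 and 1.03 in UM-UC-3, and ERBB3 reaches 3.05 in RT112 replicate 2.

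Few member peaks lay at promoters. Within 3 kb of the annotated 5′ end, no member had a peak in RT112 replicate 1, beside 9.53% of all protein-coding genes, or in RT112 replicate 2, beside 6.31%. In UM-UC-3 replicate 1, ERBB3 and ERBB4 had one, beside 12.2% of all genes, and in UM-UC-3 replicate 2 only ERBB4 had one, beside 12.8%. In at least 1 library it was 2 of 9 members, beside 24.5% of all genes, and a repeated peak of this kind was found at ERBB4 alone, beside 12.1% of all genes. With 9 members these counts do not stand apart from the shares of all genes. The annotated 5′ end is the outermost one of the gene, and for ERBB2, ERBB3 and TACC3 the principal transcript starts 12.2, 3.37 and 8.66 kb further inside. When the start of any annotated transcript was allowed, 5 members had such a peak in at least 1 library (EGFR, ERBB3, ERBB4, FGFR1 and FGFR2), beside 49.8% of all protein-coding genes.

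Of the peaks at the members, the repeated ones made up 8 of 35 (22.9%) in RT112 replicate 1, 8 of 15 (53.3%) in RT112 replicate 2, 25 of 40 (62.5%) in UM-UC-3 replicate 1 and 25 of 41 (61.0%) in UM-UC-3 replicate 2. RT112 averaged 38.1% ± 21.5 (SD, n = 2) and UM-UC-3 61.7% ± 1.08 (SD, n = 2), beside 49.8% ± 16.3 and 73.3% ± 2.21 for all peaks. The share at the members lay below that of the whole list in each library, a difference that was not tested. The replicates share the genome of their line, and what that genome adds to the overlap cannot be told apart from the signal of the antibody. By score, 20 of 54 peaks with a score below 3 were repeated (37.04%), 14 of 29 from 3 to 5 (48.3%), 22 of 36 from 5 to 10 (61.1%) and 10 of 12 at 10 or more (83.3%). The exceptions among the highest 12 were the RT112 replicate 1 peaks in intron 15 of EGFR and intron 1 of ERBB4.

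**Figure D5:**
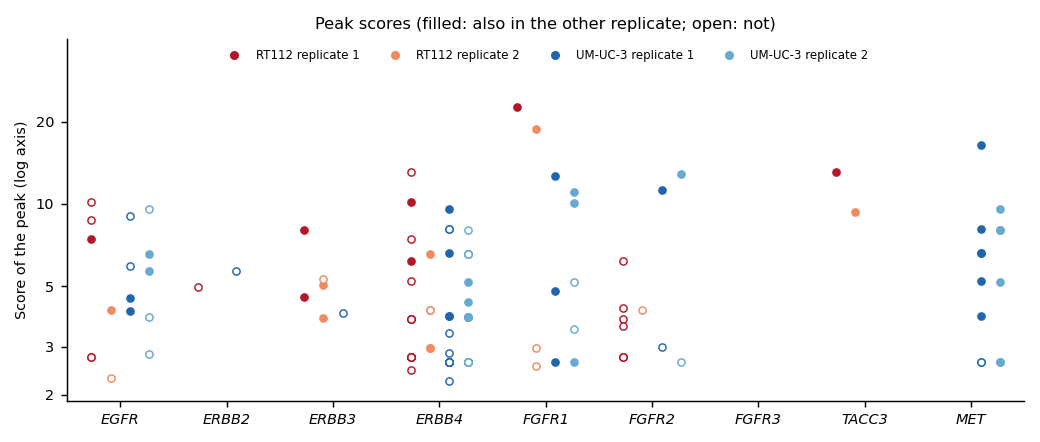
Score (−log10 of p or q, log axis) of each peak at each member, by library; filled points are repeated peaks. The highest points are the FGFR1 upstream peak of RT112 at 22.7 and 18.8 and the MET intron 19 peak of UM-UC-3 replicate 1 at 16.4.

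No peak at a member was shared between the cell lines. It was 0 of 35, 0 of 15, 0 of 40 and 0 of 41 peaks that overlapped a peak of the other line, where the share could be up to 8.57%, 20%, 7.50% and 7.32% if a count of 0 is taken to allow 3 peaks. Over all peaks of the same lists the shares were 7.02%, 7.73%, 5.98% and 5.91%. All 4 shares lay below these limits, so at this number of peaks the absence of shared sites was not distinguishable from the rate over the whole lists. EGFR, ERBB4 and FGFR1 had repeated peaks in both lines, but at different sites.

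The share of repeated DNA was counted in the same way in member peaks and in a sample of each list. Of the 24-base words in a peak, a mean of 10.7%, 18.7%, 9.73% and 8.47% were found at least 10 times in the assembly in the 4 libraries, and among every 50th peak of the same lists it was 11.1%, 10.6%, 12.9% and 12.3%. The member windows as a whole had 8.91% such words. By member, peaks made mostly of such words numbered 5 of 12 at FGFR1, 2 of 12 at FGFR2, 2 of 2 at TACC3, 1 of 2 at ERBB2, 1 of 6 at ERBB3 and 3 of 67 at ERBB4, but 0 of 16 at EGFR and 0 of 14 at MET. The part of read placement in these values was not tested.

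The wider pathway was covered by 51 genes: 21 ligands, 3 other receptors, 18 adaptors and signal transducers, and 9 negative regulators. A repeated peak was found at 25 of the 51 in RT112 (49.0%) and at 31 in UM-UC-3 (60.8%), near the 43.2% and 63.3% of all protein-coding genes. Both UM-UC-3 libraries lay above both RT112 libraries at 15 of the 51 (29.4%, beside 27.2% of all genes) and the reverse held at 12 (23.5%, beside 22.9%), and 7 had no peak in any library (13.7%, beside 14.1%). These shares were near those of all genes, but they were not matched for length. The median length was 65.5 kb for the 51 genes and 27.2 kb for all protein-coding genes. The ligands had a repeated peak at 10 of 21 in RT112 and 12 of 21 in UM-UC-3, and the negative regulators at 5 of 9 in each line.

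Adaptors and signal transducers had a repeated peak at 9 of 18 in RT112 and 14 of 18 in UM-UC-3, and 7 of the 18 were higher in UM-UC-3 against 1 in RT112. Among the negative regulators it was 1 higher in UM-UC-3 and 4 higher in RT112. Over all genes these shares are 27.2% and 22.9%, and the difference between the groups was not tested. Of the other receptors, FGFR4 had a repeated peak in RT112 and none in UM-UC-3, and the decoy receptor FGFRL1 and the MET relative MST1R had no peak in any library. The pattern of MET, with no RT112 peak and a peak in both UM-UC-3 libraries, was also seen at GAB1, a docking protein of MET signalling, with 0, 0, 3 and 4 peaks in the order RT112 replicates 1 and 2 and UM-UC-3 replicates 1 and 2, at FGF18 with 0, 0, 2 and 2, and at MAPK3 with 0, 0, 1 and 1. These genes were named after their values were seen.

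A repeated peak within 3 kb of the 5′ end was found at 7 of the 51 genes (13.7%), near the 12.1% of all protein-coding genes. In RT112 these were TGFA, a ligand of EGFR, with a peak midpoint at -943 bp from the 5′ end and scores of 8.63 and 5.44, and HGF, the ligand of MET, with one at -1550 bp and scores of 2.76 and 4.09. In UM-UC-3 they were the ligands NRG2, with scores of 5.32 and 4.26, and FGF1, with scores of 5.19 and 6.57. The other UM-UC-3 genes were the kinases MAPK3, with scores of 2.95 and 2.18, and BRAF, with scores of 4.24 and 4.22, and the ubiquitin ligase CBL, which removes active receptors, with scores of 2.33 and 3.44. No gene of the list had such a peak in both cell lines.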

How the data were processed

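PAI-1 ChIP-seq was available as 4 libraries, 2 from each cell line, with groups and replicate numbers from the sample labels. The 2 input libraries were not analysed here. Per the study's methods, the authors mapped reads to hg19 with Bowtie at default settings, which report 1 placement of a read that fits several, removed PCR duplicates with Picard and called peaks with MACS2. The submitters' processing notes name Bowtie 1.1.1, MACS2 2.1.0.20140616, FastQC and Trimmomatic. The control, the threshold of the deposited lists and any pooling of replicates are not given in the sources used here. A figure legend names a false discovery rate for bound probe sets without tying it to these lists. Each deposited list gives coordinates and a score, which was taken to be a p-value or q-value on the −log10 scale. Which of the 2 it is, the lists do not say. The methods give an average read number over samples but not the depth of each library. A count of 0 peaks was taken to allow 3.

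Duplicate intervals in a list counted as 1 peak. Genes were those of GENCODE 44 on GRCh37 (20163 records, 20136 symbols), and the sequences came from that assembly. Windows were the gene with 10 kb on both sides, flanks the 1 Mb beyond on each side, and the TSS the annotated 5′ end of the gene. All 9 members are named. Peaks named were, for each member and cell line, the repeated peak whose score ranked best on average, and the peak nearest to the TSS in each library. The genes of the pathway list were to be named only where a repeated peak lay within 3 kb of the TSS. Some items that these rules named are not reported here. The members and lists were chosen with earlier results of these data known. Differences between cell lines were read against the SD of the replicates, with an exact two-sided permutation test of 2 libraries against 2. Nothing in the labels ties a replicate of RT112 to a replicate of UM-UC-3. Alternatives covered the score, the window, the flank, the overlap, the TSS, the length groups, leaving out ERBB4 and leaving out each library. The counting was tested on simulated peaks. Python 3.11.15, numpy 2.4.6, pandas 2.3.3, scipy 1.17.1 and matplotlib 3.10.9 were used.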

Additional observations from a re-analysis of the deposited data

How the results depend on the processing

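Of 79 recomputed summary values, 2 changed sign and 25 moved by at least the SD between replicates or, for counts, by more than 1.5 times. Most of these SDs rest on 2 libraries, and the tally depends on them. For the density against the flanks in UM-UC-3 the SD was 8.77e-05, so 0.5737 against 0.5747 counted as moved. For the repeated share in RT112 it was 21.5, and no setting counted as moved. Of 36 recomputed percentiles of single members, 8 moved by at least the SD over the 4 libraries, which ran from 5.33 to 40.1, so that TACC3 at 58.9 against 33.6 is not among the 8. The difference in relative density (0.0823) changed sign without ERBB4 (-0.0195) and ranged from -0.00044 to 0.165 when each library was left out, with the lowest value without RT112 replicate 2 and the highest without RT112 replicate 1. With the replicate block it stayed 0.0823 (exact paired permutation p = 0.5, the smallest possible), and the replicate numbers are only numbers here. Members with a repeated peak in RT112 were 3 of 9 at a score of at least 5 and 3 in the gene body alone, and in UM-UC-3 they were 8 with windows of 50 kb. At a score of at least 5 the cut was put on both replicates, so a repeated peak needed a partner that also reached 5. The repeated share at that setting is therefore not comparable with the shares by score given above. The share of repeated member peaks in UM-UC-3 was 45.6% at a score of at least 5, 66.7% in the gene body alone, 67.8% with windows of 50 kb and 64.9% without ERBB4. It ranged from 61.0% to 62.5% when each library was left out, and from 22.9% to 53.3% in RT112.

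Density against the flanks moved to 0.634 in RT112 without ERBB4 and ranged from 0.369 to 0.579 when each library was left out. In UM-UC-3 it was 0.574 with every line counted, 0.486 at a score of at least 5, 0.587 in the gene body alone, 0.642 with windows of 50 kb, 0.627 without ERBB4, 0.621 and 0.552 with flanks of 500 kb and 2 Mb, and 0.556 in bases covered, and it stayed within 0.5747 to 0.5748 when each library was left out. Members with a peak near the TSS in any library numbered 1 at a score of at least 5, 5 with any transcript, 0 within 1 kb and 8 within 10 kb. Members higher in UM-UC-3 numbered 1 at a score of at least 5, 1 with windows of 50 kb and 1 without ERBB4, each time MET, but 3 in the gene body alone (ERBB4, FGFR1 and MET). Only 1 member, ERBB3, was higher in RT112 in the gene body alone, and with windows of 50 kb it was EGFR and ERBB3 in place of ERBB3 and TACC3. The median percentile of the members was 31.9, and 42.9 among the 200 genes nearest in length and GC content together. Fewer peaks or genes entered the count in some settings, and the score cut also fell on the partner peak. Other causes of these changes were not tested. With 2 libraries for each line, no depth for each library and no copy number, differences between the lines cannot be told apart from differences between these cultures and genomes.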
